A study of Mus musculus with 4 samples.

Results

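Contractile genes of the myoepithelium, the outer cell layer of the mammary gland, were read in RNA sequencing of mouse mammary cells grown in 3D culture with or without baicalin, a flavonoid glycoside of the plant Scutellaria baicalensis. The members were 9 genes chosen by name for their part in contraction, Oxtr, Mylk, Myl9, Myh11, Acta2, Actg2, Tpm2, Cnn1 and Tagln. All 9 were found by symbol among the 54446 genes of the deposited table. The study asked how baicalin alters mRNA levels in the basal and the luminal cells of the gland. Cells of wild type C57BL/6 mice were sorted by flow cytometry, set in growth factor-reduced Matrigel, and given DMSO, the solvent control, or 100 μM baicalin with the medium. The 4 groups were cells labelled basal with DMSO, basal with baicalin, luminal with DMSO and luminal with baicalin, with 1 library each. No value therefore has a replicate, and an effect of baicalin cannot be told apart from what else set the cultures apart. The labels give neither the age of the mice nor the time in culture. The study's methods give a range of ages for the isolation of glands and a time for the scoring of colonies, neither of them for these libraries in particular, and whether animals were pooled is not given in the sources used here.

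Levels are FPKM, the fragments of a gene scaled by the length of its exons and by the fragments counted in the library. This puts genes of different length and libraries of different depth on one scale. The summed FPKM of all genes still differed between libraries, from 275042 to 296479. The libraries held 19853616, 20283109, 19356212 and 20648942 counted fragments in the order just given. On a gene with 1 kb of exons, 1 fragment was worth 0.0504, 0.0493, 0.0517 and 0.0484 FPKM. Changes are log2 ratios after adding 1 FPKM to both values, which understates the change of low genes, and a gene was counted as higher or lower when it passed a change of 1 on that scale. Ratios are plain FPKM ratios with exact 95% Clopper-Pearson intervals. These intervals, and the Poisson intervals on levels, cover counting error only and not the variation between cultures.

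Myoepithelial cells wrap the ducts and alveoli and squeeze milk out when oxytocin reaches them. Oxytocin binds its receptor, calcium rises in the cell, and calmodulin turns on myosin light chain kinase, which phosphorylates the regulatory light chain so that smooth muscle myosin can pull on actin filaments. The genes of this machinery are shared with smooth muscle, and many of them are targets of the transcription factor SRF and its coactivators.

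The cell type labels went against the markers. All 12 basal markers had more FPKM under the luminal label than under the basal label, with DMSO and also with baicalin. Krt5, a keratin of basal cells, had 128 FPKM with DMSO and 3.01 with baicalin under the basal label, and 2015 and 2415 under the luminal label. Trp63, which encodes the basal transcription factor p63, had 6.01 and 0.306 FPKM under the basal label and 25.2 and 27.0 under the luminal label. Of 16 luminal markers, 13 were lower in the library labelled luminal with DMSO, the exceptions being Gata3, Esr1 and Foxa1, and 15 with baicalin, the exception being Gata3. By more than 1 on the log2 scale, 2 were higher and 9 lower with DMSO, and 0 were higher and 9 lower with baicalin. The highest change with DMSO was 1.88. Krt8, a luminal keratin, had 1573 and 754 FPKM under the basal label and 383 and 324 under the luminal label. Esr1, the estrogen receptor gene, was low in all libraries, at 0.992 and 0.982 FPKM under the basal label and 1.44 and 0.723 under the luminal label. The study's methods state that the sorted populations had their purity checked. The names basal and luminal are therefore used only as labels of the libraries. Each library is on one side of this conflict, so no result could be computed without the libraries it concerns.

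The contractile genes lay on the same side as the basal markers. With DMSO and with baicalin, each of the 9 had a higher FPKM in the library labelled luminal than in the library labelled basal. A lower level in a bulk library can come from fewer cells of a type or from less RNA per cell, and these cannot be told apart. Of the 9 genes, 8 were above 0 FPKM in all 4 libraries and entered the comparisons across genes, and Actg2 did not, since it was at 0 in 1 library.

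With DMSO, 7 of these 8 genes passed a log2 change of 1 upward under the luminal label and 0 passed it downward. Across the 17787 genes kept, 4.71% were higher and 3.86% were lower. The median log2 change of the 8 genes was 3.38, beside 0.01 over all genes kept, and with 0.1 FPKM added in place of 1 it was 5.59. With baicalin, 8 of 8 were higher and 0 were lower, where 5.24% of all genes were higher and 2.99% were lower. Their median was 2.83, beside -0.03 over all genes, and it was 4.96 with 0.1 FPKM added. With Actg2 added at the limit of 3 fragments in the library where it was at 0, the median of the 9 genes with baicalin was 2.12. These label comparisons share their libraries with the baicalin comparisons, so the values are given side by side and nothing is drawn from their likeness.

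**Figure D1:**
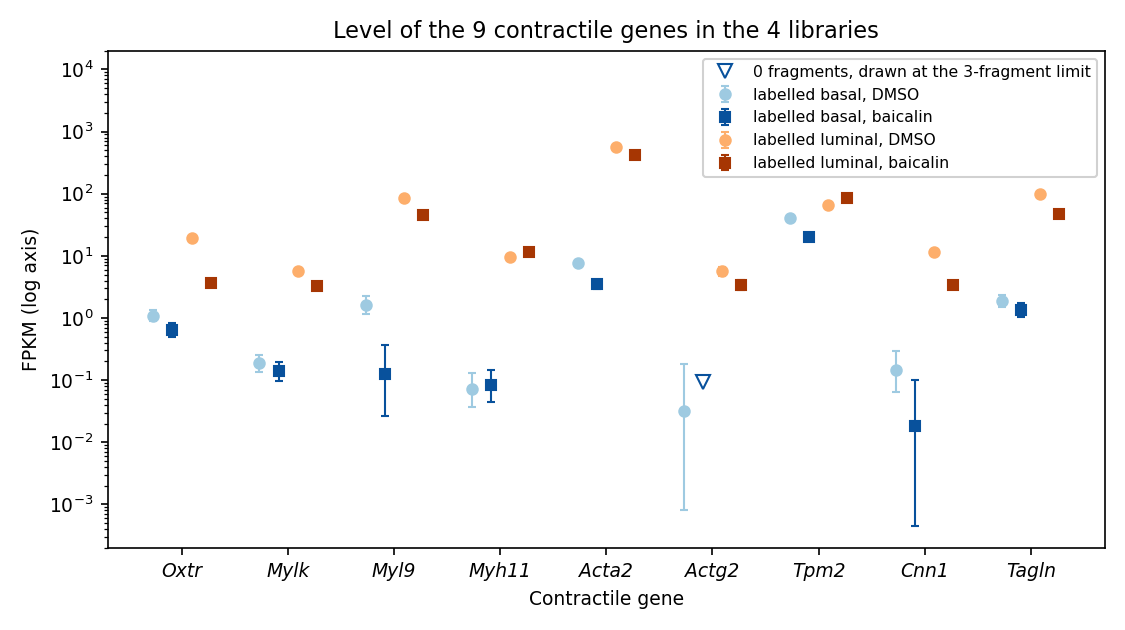
Level of the 9 contractile genes in FPKM on a log axis, with 1 point for each of the 4 libraries and bars for the exact 95% Poisson interval. All 9 genes were higher under the luminal label in both treatments, Tpm2 by the smallest ratio, and Actg2, at 0 fragments in the basal-labelled baicalin library, is drawn at the level of 3 fragments.

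The trigger of contraction comes first. Oxtr (ENSMUSG00000049112, GRCm38 chromosome 6, 112473683 to 112489943, minus strand) encodes the oxytocin receptor, a G protein-coupled receptor. Its level was 1.09 FPKM with DMSO and 0.638 with baicalin under the basal label, and 19.4 and 3.61 under the luminal label. The luminal-labelled DMSO library thus stood far above the other 3. The ratio between the labels was 17.7 with DMSO (95% interval 14.5 to 21.8) and 5.66 with baicalin (4.31 to 7.53). With baicalin, the luminal-labelled level was 0.186 of that with DMSO (0.166 to 0.209), a log2 change of -2.15 and the lowest of the 9 genes. Under the basal label the baicalin level was 0.583 of the DMSO level (0.419 to 0.807), a log2 change of -0.35.

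Mylk (ENSMUSG00000022836, chromosome 16, 34745210 to 35002420, plus strand) encodes myosin light chain kinase, which calcium and calmodulin activate. It had 0.188 and 0.140 FPKM with DMSO and baicalin under the basal label, and 5.76 and 3.29 under the luminal label. Both luminal-labelled libraries were above both basal-labelled ones, by a ratio of 30.7 with DMSO (22.6 to 42.8) and 23.5 with baicalin (16.5 to 34.6). The luminal-labelled baicalin level was 0.571 of the DMSO level (0.521 to 0.625), a log2 change of -0.66 that did not pass the threshold. Under the basal label, 42 and 32 fragments gave a ratio of 0.746, whose interval of 0.456 to 1.21 included no change.

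The motor proteins follow. Myl9 (ENSMUSG00000067818, chromosome 2, 156775420 to 156781658, plus strand) encodes the smooth muscle regulatory light chain that the kinase phosphorylates. Its level was 1.65 FPKM with DMSO and 0.127 with baicalin under the basal label, and 84.7 and 44.8 under the luminal label. The luminal-labelled libraries were high and the basal-labelled baicalin library was lowest, with 3 fragments. Myl9 was the only member past the threshold with baicalin under the basal label, at a log2 change of -1.23 and a ratio of 0.0773 (0.0153 to 0.244). In the luminal-labelled pair the change was -0.90 and the ratio 0.529 (0.490 to 0.570). Between the labels the ratio was 51.4 with DMSO (37.3 to 72.9) and 352 with baicalin (120.0 to 1708).

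Myh11 (ENSMUSG00000018830, chromosome 16, 14194535 to 14291372, minus strand) encodes the smooth muscle myosin heavy chain. It had 0.0729 and 0.0843 FPKM under the basal label, from 11 and 13 fragments, and 9.50 and 11.6 FPKM under the luminal label. The luminal-labelled values were the high ones, by a ratio of 130.4 with DMSO (72.6 to 262) and 137 with baicalin (80.0 to 258). In neither pair was Myh11 lower with baicalin. The ratio of baicalin to DMSO was 1.22 under the luminal label (1.13 to 1.31), a log2 change of 0.26, and 1.16 under the basal label with an interval of 0.478 to 2.85.

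The filament is built of actin. Acta2 (ENSMUSG00000035783, chromosome 19, 34241090 to 34255590, minus strand) encodes smooth muscle alpha actin, the usual stain for myoepithelial cells. It had 7.66 FPKM with DMSO and 3.49 with baicalin under the basal label, and 555 and 417 under the luminal label. It was the most abundant of the 9 genes under the luminal label, and the ratio between the labels was 72.4 with DMSO (65.0 to 80.9) and 119 with baicalin (102 to 141). With baicalin the log2 change was -0.95 under the basal label, for a ratio of 0.455 (0.373 to 0.551), and -0.41 under the luminal label, for a ratio of 0.751 (0.737 to 0.766). The exon length used here did not turn the FPKM of Acta2 into whole fragments, so its intervals are approximate.

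Actg2 (ENSMUSG00000059430, chromosome 6, 83512905 to 83536265, minus strand) encodes smooth muscle gamma actin. It had 0.0323 FPKM under the basal label with DMSO, from 1 fragment, and 0 with baicalin, where 0 fragments allow up to 0.0950 FPKM at the limit of 3 fragments. Under the luminal label it had 5.61 and 3.45 FPKM. The luminal-labelled libraries were the only ones with more than 3 fragments. The ratio between the labels with DMSO was 174 (30.7 to 6887), and with baicalin Actg2 was at least 36.3-fold higher under the luminal label when the 0 is put at 3 fragments, while the exact 95% lower limit of that ratio, which takes in the counting error of both libraries, was 29.1. Under that label the baicalin level was 0.616 of the DMSO level (0.480 to 0.787), a log2 change of -0.57. No fold is given under the basal label.

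The remaining members bind the actin filament. Tpm2 (ENSMUSG00000028464, chromosome 4, 43514711 to 43523765, minus strand) encodes beta tropomyosin, which lies along the filament. It had 41.4 FPKM with DMSO and 20.2 with baicalin under the basal label, and 66.2 and 86.5 under the luminal label. Tpm2 was the member closest to even between the labels, with a ratio of 1.60 with DMSO (1.52 to 1.69) and 4.28 with baicalin (4.02 to 4.56). The log2 change with DMSO was 0.67, and Tpm2 was the 1 member of the 8 that did not pass the threshold there. With baicalin its log2 change was -0.999 under the basal label, just short of the threshold, with a ratio of 0.488 (0.455 to 0.524). Under the luminal label the change was 0.38, with a ratio of 1.31 (1.25 to 1.36).

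Cnn1 (ENSMUSG00000001349, chromosome 9, 22099216 to 22109630, plus strand) encodes calponin, which binds actin and slows the myosin ATPase. Its level was 0.147 FPKM with DMSO and 0.0180 with baicalin under the basal label, from 8 fragments and 1 fragment, and 11.7 and 3.43 FPKM under the luminal label. Values under the luminal label were again the high ones, with a ratio of 79.4 with DMSO (40.0 to 185) and 191 with baicalin (33.8 to 7565). With baicalin Cnn1 was lower under the luminal label by a log2 change of -1.52, a ratio of 0.294 (0.249 to 0.346). Under the basal label the change was -0.17, and the plain ratio was 0.122 (0.00276 to 0.913).

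Tagln (ENSMUSG00000032085, chromosome 9, 45929619 to 45936058, minus strand) encodes transgelin, an actin cross-linking protein. It had 1.90 and 1.36 FPKM under the basal label and 97.6 and 47.2 under the luminal label. The label ratio was 51.4 with DMSO (40.9 to 65.4) and 34.6 with baicalin (26.5 to 46.1). With baicalin it was lower under the luminal label by a log2 change of -1.03, a ratio of 0.484 (0.458 to 0.511), while the interval under the basal label, 0.497 to 1.03, included no change. Of its exon bases, 62.4% overlap Gm48529, a gene on the other strand with 2.13, 2.02, 2.49 and 1.81 FPKM in the 4 libraries, and 5.43% overlap Pcsk7, also on the other strand, with 9.30, 8.37, 9.13 and 8.12 FPKM. Whether the counting was strand-specific is not stated, so at the low levels of the basal label fragments of Tagln, Gm48529 and Pcsk7 cannot be told apart. Mylk shares 4.87% and 1.99% of its exon bases with antisense genes that were at or below 0.0899 FPKM.

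Baicalin was then compared with DMSO within each label. In the libraries labelled basal, 1 of 8 contractile genes (Myl9) was lower by more than 1 and 0 were higher, where 3.33% of all genes kept were lower and 2.15% were higher. The median log2 change of the 8 was -0.32, beside 0.01 over all genes. By plain FPKM, 8 of the 9 were lower with baicalin and 1, Myh11, was higher, where 8728 of all 17787 genes kept were lower. Of the 8, the intervals of Mylk and Tagln included no change and Actg2 had 1 fragment against 0. The count past the threshold depended on the 1 FPKM added. With 0.1 FPKM added, 4 genes (Acta2, Cnn1, Myl9 and Tpm2) were lower by more than 1, where 7.32% of all genes were lower, and the median of the 8 was -0.862. The 12 basal markers were lower with baicalin in the same pair, 8 of them by more than 1, with a median log2 change of -1.58. Their summed level was 2135.5 FPKM with DMSO and 644 with baicalin, with Krt14 the most abundant at 1494 and 417. Luminal markers were also lower in this pair, 12 of 16 with a median of -0.55 and summed levels of 4481 and 3101 FPKM, as were 11 of 12 fibroblast markers, with a median of -0.46. What part these marker differences have in the levels of the contractile genes was not tested.

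In the libraries labelled luminal, 3 of 8 contractile genes (Oxtr, Cnn1 and Tagln) were lower by more than 1 with baicalin and 0 were higher, where 1.59% of all genes kept were lower and 2.37% were higher. The median log2 change was -0.78, beside -0.02 over all genes, and -0.66 with Actg2 added as a 9th value. By plain FPKM, 7 of the 9 were lower, and Myh11 and Tpm2 were higher, where 9670 of all genes kept were lower. The members thus ranged from a ratio of 0.186 for Oxtr to 1.31 for Tpm2. The basal markers did not share one direction in this pair: 7 of 12 were higher and 5 were lower, with a median of 0.09. By more than 1, 1 was higher and 2 were lower, and their changes ranged from -2.75 to 1.67. Their summed level was 5965 FPKM with DMSO and 7435 with baicalin. Krt14 was again the most abundant of them, at 2308 and 3132 FPKM. Luminal markers were lower in 13 of 16 cases, 4 of them by more than 1, with a median of -0.39 and summed levels of 1315 and 1098 FPKM. Of 12 fibroblast markers 8 were higher, with a median of 0.14, while their summed level was 349.6 FPKM with DMSO and 257 with baicalin. All 8 adipocyte markers were lower, with summed levels of 21.7 and 8.69 FPKM. The part of these marker differences in the levels of the contractile genes was not tested. Whether the baicalin changes differed between the labels was not tested.

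**Figure D2:**
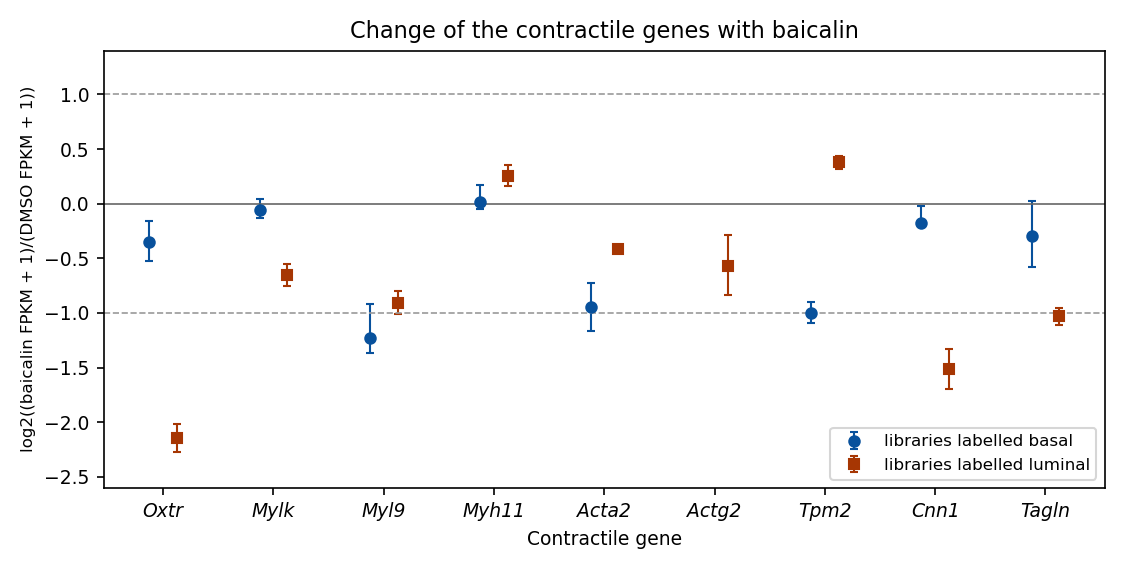
Change of each contractile gene with baicalin, as log2 of (baicalin FPKM + 1)/(DMSO FPKM + 1), under the 2 cell type labels. Dashed lines are at a change of 1 in either direction. Bars carry the 95% interval of the plain FPKM ratio onto this scale with the DMSO level held at its observed value. They are not exact intervals of the change and are narrow for low genes. Oxtr, Cnn1 and Tagln under the luminal label and Myl9 under the basal label lie below -1, and Actg2 has no point under the basal label, where it had at most 1 fragment.

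Summed over the 9 genes, the level was 54.1 FPKM with DMSO and 26.1 with baicalin under the basal label, and 855 and 620.4 under the luminal label. The make-up of this sum differed between the labels. Tpm2 held 76.5% and 77.5% of it in the basal-labelled libraries, and Acta2 held 64.9% and 67.2% in the luminal-labelled ones. Without Acta2 the sums were 46.5, 22.6, 300.4 and 204 FPKM in the same order.

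Ordered by FPKM under the basal label, Tpm2 and Acta2 led with both treatments and Actg2 was last. With DMSO the intervals of neighbours overlapped from Tagln to Myl9 to Oxtr, and from Mylk to Cnn1 to Myh11 to Actg2. With baicalin they overlapped from Mylk down, through Myl9, Myh11 and Cnn1 to Actg2. Under the luminal label with DMSO the order was Acta2, Tagln, Myl9, Tpm2, Oxtr, Cnn1, Myh11, Mylk and Actg2, and among neighbours only the last pair overlapped. With baicalin it was Acta2, Tpm2, Tagln, Myl9, Myh11, Oxtr, Actg2, Cnn1 and Mylk, and the intervals overlapped between Tagln and Myl9 and between neighbours from Oxtr down. Oxtr thus stood above Cnn1, Myh11, Mylk and Actg2 with DMSO and below Myh11 with baicalin.

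Other cells that carry smooth muscle genes were looked for by their markers. Of 15 entries for pericytes and vascular smooth muscle, 14 were found, and their summed level was 28.9, 21.04, 94.2 and 102 FPKM in the basal-labelled DMSO and baicalin and the luminal-labelled DMSO and baicalin libraries. Higd1b, Rergl and Pln were at 0 in all 4 libraries and Ndufa4l2 in both luminal-labelled ones. The most abundant gene was Notch3 under the basal label, at 13.9 and 14.7 FPKM, and Mcam under the luminal label, at 67.9 and 79.2. Without Mcam the sums were 15.99, 15.8, 26.3 and 22.9 FPKM in the 4 libraries. Of the 14 genes, 7 were higher and 4 lower under the luminal label with DMSO, and 10 were higher and 1 lower with baicalin. Des, the muscle intermediate filament gene, was between 0.0963 and 0.194 FPKM, and Rgs5, a pericyte gene, at most 0.216, both named after their values were seen.

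Fibroblast markers, 12 of 12 found and above 0, summed to 759, 515, 349.6 and 257 FPKM in the same order. Fn1 led under the basal label at 707 and 498 FPKM, and Postn under the luminal label at 276 and 167. Without these 2 genes the sums were 11.3, 3.81, 23.2 and 17.6 FPKM. By number, 6 of the 12 markers were higher and 6 lower under the luminal label with DMSO, and 11 were higher and 1 lower with baicalin. Skeletal muscle markers, 10 of 10 found, summed to 7.855, 5.84, 5.19 and 4.32 FPKM, led by Tnni2 at 4.10, 2.70 and 1.78 except in the luminal-labelled DMSO library, where Acta1 led at 2.05. Pvalb was at 0 in all 4 libraries, Myh1 and Myh4 in both basal-labelled ones, Ckm in the basal-labelled DMSO library, Myl1 in the basal-labelled baicalin library, and Tnnt3 there and in the luminal-labelled DMSO library. Under the luminal label 6 of the 10 were higher and 3 lower with DMSO, and 4 were higher and 5 lower with baicalin. Without Tnni2 the sums were 3.75, 3.14, 4.26 and 2.54 FPKM. Endothelial markers, 10 of 10 found and above 0, summed to 2.43, 2.28, 3.54 and 6.45 FPKM, and none exceeded 1.34 FPKM, the level of Cdh5 in the luminal-labelled baicalin library. Under the luminal label 9 of them were higher and 1 lower with DMSO, and 10 were higher and 0 lower with baicalin.

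Immune markers, 10 of 10 found, summed to 8.26, 52.5, 5.13 and 17.4 FPKM. Cd68, a lysosomal protein gene, made up most of this at 7.49, 51.5, 4.44 and 13.7 FPKM, while Cd3e was at 0 in all but the luminal-labelled DMSO library. Ptprc, which encodes CD45, and Adgre1 were at 0 in the basal-labelled baicalin library, and Tyrobp in the luminal-labelled DMSO library. For the sort, the study's methods name antibodies to CD31, CD45 and TER119 beside those to CD24 and CD29. Adipocyte markers, 8 of 8 found, summed to 1.30, 4.43, 21.7 and 8.69 FPKM, led by Lpl under the basal label at 0.726 and 3.13 and by Fabp4 under the luminal label at 9.81 and 4.21. Between the labels, 8 were higher and 0 lower under the luminal label with DMSO, and 5 were higher and 2 lower with baicalin. All 8 were lower with baicalin than with DMSO under the luminal label, and Adipoq, named after its values were seen, had 4.15 FPKM there with DMSO and 0.561 with baicalin. Lep, Cfd and Cidec were at 0 in both basal-labelled libraries and Lep also in the luminal-labelled baicalin library, while Plin1 was at 0 in the basal-labelled DMSO library and Adipoq in the basal-labelled baicalin library. The part of fibroblast, adipocyte and Mcam-expressing cells in the levels of the contractile genes was not tested.

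The members were next set beside non-muscle and other-muscle genes of their families. Of 23 such paralogs, 18 were above 0 in all libraries. Between the labels, 0 were higher and 1 (Tpm1) was lower by more than 1 with DMSO, at a log2 change of -1.23, and 0 passed in either direction with baicalin. The medians were -0.09 and 0.01. With baicalin against DMSO, 0 paralogs passed the threshold in either label, with medians of -0.22 under the basal label and 0.07 under the luminal label. The 1 FPKM added holds down low genes here as well: Mylk2, a paralog of Mylk named after its values were seen, had 0.102 FPKM with DMSO and 0.685 with baicalin under the basal label, a ratio of 6.69 (2.82 to 19.3), and 0.0875 and 0.509 under the luminal label, a ratio of 5.81 (2.24 to 19.1). Actb, cytoplasmic beta actin, had 504 and 368 FPKM under the basal label and 425 and 417 under the luminal label. Myh9, the main non-muscle myosin heavy chain, had 127 and 124 FPKM under the basal label and 119.6 and 124 under the luminal label.

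The smooth muscle genes therefore took different shares of their families. Acta2 and Actg2 made up 0.752% and 0.423% of the summed FPKM of 6 actin genes under the basal label, and 38.3% and 31.2% under the luminal label. Myl9 made up 3.12% and 0.236% of the summed FPKM with Myl12a and Myl12b under the basal label, and 63.3% and 45.9% under the luminal label. Tagln made up 0.666% and 0.674% of the transgelins, and 36.4% and 18.5%. In these 3 families the smooth muscle genes reached a large share under the luminal label. The shares stayed smaller for Myh11 among 4 myosin heavy chains, at 0.0437% and 0.0519% under the basal label and 6.00% and 6.89% under the luminal label. Cnn1 made up 0.0835% and 0.0125% of the calponins, and 6.56% and 2.002%. Tpm2 made up 5.30% and 3.48% of the tropomyosins, and 13.9% and 14.4%. Of the 16 paralogs in these sums, 7, Actb, Actg1, Cnn3, Myl12a, Myl12b, Tpm3 and Tpm4, are at least 95% identical to another gene over at least 200 bases, so their levels and these shares are uncertain. No actin, myosin, calponin, transgelin or tropomyosin gene matched a member in this way.

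**Figure D3:**
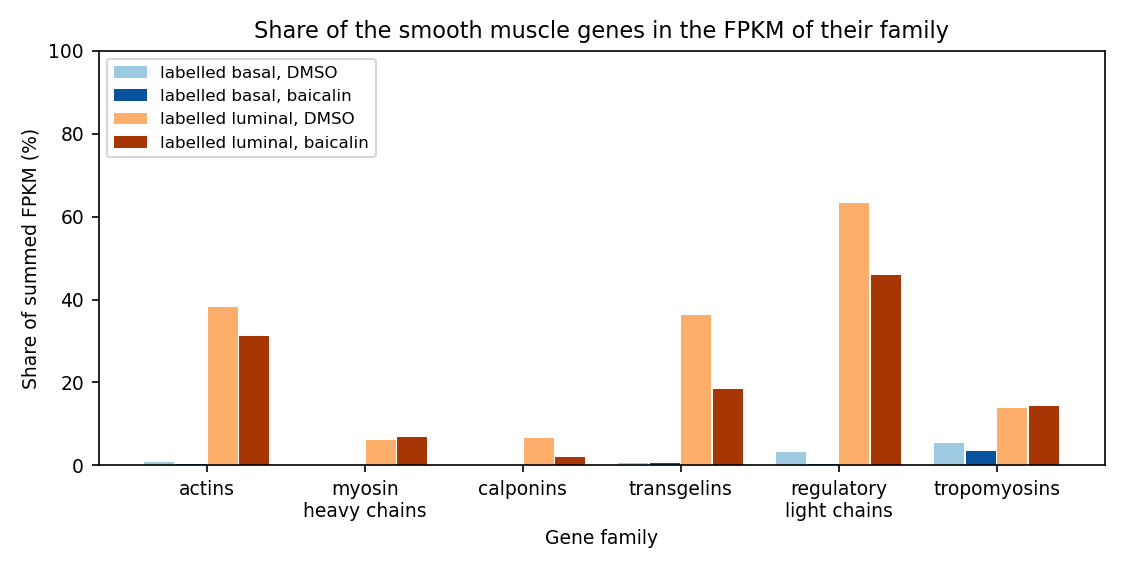
Share of the smooth muscle genes in the summed FPKM of their gene family, in percent, for 6 families, with 1 bar for each of the 4 libraries and no error bars since there are no replicates. The bars of the luminal-labelled libraries are the taller ones in each family, up to 63.3% for the regulatory light chain gene Myl9 with DMSO.

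The oxytocin and calcium pathway upstream of the motor was read from a list of 24 genes, 22 of them above 0 in all libraries. Between the labels 1 was higher and 2 were lower with DMSO, and 2 were higher and 1 was lower with baicalin, with medians of -0.02 and 0.02. Rgs2, which dampens signals of the receptor's G protein, was higher under the luminal label by 1.05 with DMSO and 1.05 with baicalin. Trpv4 and Piezo1, both calcium-permeable channels, were lower there with DMSO, by log2 changes of -1.89 and -1.66. With baicalin Stim1, the calcium sensor of the endoplasmic reticulum, was higher by 1.403, and Piezo1 was lower at -1.16. Baicalin against DMSO gave 0 genes past the threshold under the basal label and 1 higher and 1 lower under the luminal label, with medians of -0.14 and 0.06. The higher one was Trpv4, which had 2.84 FPKM with DMSO and 7.82 with baicalin. The lower one was Calm2, a calmodulin gene, with 483 FPKM with DMSO and 235 with baicalin. Calm2 and Piezo1 match other genes over part of their length, Piezo1 matching Ctu2 at 100% identity over 1490 bases, so their levels are uncertain. The search took both strands and does not tell a copy elsewhere from 2 genes that overlap at one place. Overlaps were read for the members only. Not every gene named was searched for such stretches. Besides the paralogs already given, those searched that had one were Krt8, Notch3, Smtn, Cryab, Elk3, Rcn3 and Prelp. Of the members, Tagln (647 bases with Gm48529) and Mylk (222 bases with AC110166.1) had one, in both cases with a gene that overlaps them on the other strand.

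Other smooth muscle genes numbered 34, of which 33 were kept. Between the labels 5 were higher and 2 were lower with DMSO, with a median of 0.04, and 6 were higher and 0 lower with baicalin, where the median was 0.24. Those higher with DMSO included Pgm5, Nexn, Tns1 and Lmod1, at log2 changes of 4.29, 1.65, 1.63 and 1.28, and the 2 lower were Zyx and Pdlim7, at -1.45 and -1.08. Pgm5, a protein of the junctions where actin meets the membrane, had 0.418 and 0.341 FPKM under the basal label and 26.8 and 0.711 under the luminal label, so that it was high in the luminal-labelled DMSO library alone. Its log2 change with baicalin there was -4.02, and it was the only gene of the list lower by more than 1. Sncg, gamma synuclein, was the only one higher, at 1.45, with 31.1 FPKM with DMSO and 86.6 with baicalin. Under the basal label Cryab, a small heat shock protein, was higher with baicalin at 1.36, and Smtn, which encodes smoothelin, and Filip1l were lower at -1.18 and -1.03. The list's medians with baicalin were -0.13 under the basal label and 0.12 under the luminal label.

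Among 14 genes for SRF and its partners, 13 were kept. Myocd, the smooth muscle coactivator of SRF, was at 0 in 3 libraries and had 1 fragment in the luminal-labelled baicalin library. Srf itself had 12.8 and 11.3 FPKM under the basal label and 17.4 and 12.6 under the luminal label, so its level was of the same order in all 4. Between the labels 0 genes passed the threshold with DMSO, and 1 (Hey1) was higher with baicalin, at 1.85, with medians of -0.11 and 0.02. Hey1, a repressor induced by Notch signaling, had 7.81 and 0.785 FPKM under the basal label and 15.8 and 5.44 under the luminal label. With baicalin it was the 1 gene lower under the basal label, at -2.30, and the 1 lower under the luminal label, at -1.38. Klf4, which represses smooth muscle genes in vascular cells, was the 1 gene higher, at 1.44 under the luminal label, with 19.3 FPKM with DMSO and 54.3 with baicalin. The medians with baicalin were -0.09 and -0.21. In this list and the ones before it, Stim1, Nexn, Tns1, Lmod1, Zyx, Pdlim7, Filip1l and Myocd were named after their values were seen.

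Genes near the median pattern of the members were looked for among 9185 genes with at least 5 FPKM in a library. The measure was the distance between log2(FPKM + 1) profiles over the 4 libraries, each centred on its own mean. The 8 nearest to the median profile of the members were Pi15, Scube3, Bgn, Rcn3, Prelp, Colca2, Sema6d and Calml3, at distances of 0.172 to 0.533. Pi15, a secreted peptidase inhibitor, had 0.517 and 0.264 FPKM under the basal label and 14.9 and 5.50 under the luminal label. Bgn, the matrix proteoglycan biglycan, had 5.95 and 4.16 FPKM, and 87.7 and 27.8. Both were highest in the luminal-labelled DMSO library. Of the members themselves, Cnn1 was nearest to their median, at a distance of 0.284 and rank 2 of the 9185 genes. Acta2 was farthest, at 3.43 and rank 7051, while Tagln, Tpm2 and Myl9 were at ranks 248, 389 and 751. The median profile is thus not the pattern of every member, and the genes near it are not near all members. The profiles were not scaled, so this distance also takes in how large the differences between libraries were.

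The promoters of members were searched for the CArG box, the DNA element that SRF binds, to ask whether the members share it. Promoter windows from 250 bases before to 50 bases after the start were given by RefSeq on GRCm38.p6 for 6 members, Oxtr, Mylk, Myl9, Acta2, Tpm2 and Cnn1. In all 6 the RefSeq start lies inside the gene span given above, which comes from GENCODE, and positions are counted from the RefSeq start. The box reads the same on both strands. It was found in 1 of the 6, that of Myl9, and in 1.63% of 32851 promoters of the same length. With 1 of the middle letters allowed to differ, a search chosen after the data were seen, it was found in 2 of the 6, those of Myl9 and Acta2, and in 9.98% of all promoters. A match is a description of the letters and was not tested as a binding site. Both sequences are printed 5′ to 3′ to show where these matches lie, with the matches in capitals. That of Acta2 is on chr19:34255324-34255623, minus strand, with matches that start 84 and 34 bases before the RefSeq start, inside the GENCODE span of the gene, each with 1 letter off. That of Myl9 is on chr2:156775214-156775513, plus strand, with the full box 161 bases and a match with 1 letter off 99 bases before the start.
Acta2: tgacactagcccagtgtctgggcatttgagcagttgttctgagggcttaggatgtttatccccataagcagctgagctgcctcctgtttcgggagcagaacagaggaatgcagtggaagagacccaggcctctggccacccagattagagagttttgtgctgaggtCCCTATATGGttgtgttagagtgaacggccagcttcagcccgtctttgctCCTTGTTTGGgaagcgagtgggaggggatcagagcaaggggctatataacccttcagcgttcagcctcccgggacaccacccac
Myl9: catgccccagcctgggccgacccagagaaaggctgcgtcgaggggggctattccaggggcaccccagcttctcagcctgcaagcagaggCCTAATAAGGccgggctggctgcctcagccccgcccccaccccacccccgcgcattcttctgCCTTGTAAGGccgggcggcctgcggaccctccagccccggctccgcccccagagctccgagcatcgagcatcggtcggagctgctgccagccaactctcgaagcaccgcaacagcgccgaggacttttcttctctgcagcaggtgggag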

How the data were processed

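RNA of 4 libraries, 1 per group, was analysed. The authors deposited FPKM, which per the study's methods came from reads aligned with HISAT2 to GRCm38 and counted with featureCounts v1.5.0 on Ensembl release 94. The submitters' processing notes also name Bowtie 0.12.2 and the build mm8, whose use is not clear from the sources. The strand setting is not given in the sources used here. Libraries were made with a stranded kit from RNA captured on oligo (dT) beads.

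Exon lengths came from GENCODE mouse release 21 on GRCm38, for 54409 of 54446 genes. Products of FPKM and exon length step by whole fragments, and the step size gave the depth of each library. Of genes with up to 20 fragments, 98.7% to 98.9% came out whole within 0.05 fragments, and 8 of the 9 contractile genes did in all 4 libraries. The recovered fragments were used for intervals, the limit of 3 fragments that a count of 0 allows, and 1 filter, not for a count test. Genes above 0 FPKM in all 4 libraries (17787) were kept, as in the study's methods, and the study's t-test was not run because there are no replicates. Calls are changes past 1 in log2((a + 1)/(b + 1)).

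The members and the lists were chosen with earlier results of these data known. Genes named were the 9 members, their paralogs by family, the 4 members of each other list with the largest baicalin change among genes of at least 5 FPKM in a library, the most abundant and the absent genes of each marker list, and the 8 nearest profiles. Alternatives were a pseudocount of 0.1 FPKM or none, 3 other filters (above 0 in both libraries, at least 1 FPKM in a library, at least 10 fragments), TPM, centring on the median ratio, and 2 as the threshold. A search for near-identical genes was made by transcript alignment at 95% identity over 200 bases. The computation was tested on simulated data. BLAST+ 2.17.0 and Python 3.11.15 were used, with scipy 1.17.1, numpy 2.4.6, matplotlib 3.10.9 and pandas 2.3.3. Protein sequences were not used here. Some genes and 1 gene list are not reported here.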

Additional observations from a re-analysis of the deposited data

Results flagged for a closer look

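Among the genes named, 20 had a baicalin change of one sign in the libraries labelled basal and of the other sign in those labelled luminal, with both counting intervals excluding no change. Some of the genes were named for a large baicalin change, and no share over all genes kept is given. The count therefore does not show whether such genes are unusual. With 1 library per group the difference between the labels was not tested for any of them, and the values are on the log2 scale with 1 FPKM added. Of the contractile genes, only Tpm2 was among them. Its change was -0.999 under the basal label and 0.38 under the luminal label, a difference of 1.38.

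Tropomyosin paralogs stood on the same sides as Tpm2. The luminal-labelled minus basal-labelled difference was 0.56 for Tpm1, 0.44 for Tpm3 and 0.87 for Tpm4, and none of the 6 changes behind these values passed 1. Tpm3 and Tpm4 are nearly identical to other genes over part of their length, so their levels are uncertain. For other paralogs the difference was 0.78 for Tagln2, 0.27 for Actg1 and 0.08 for Myh9. Of other smooth muscle genes, Sncg differed by 2.32, from -0.87 under the basal label to 1.45 under the luminal label, and Filip1l by 1.87, from -1.03 to 0.84. Trpv4 differed by 1.49 and Elk3, an SRF partner, by 0.81.

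Of the basal markers, Krt5 differed by 5.27, from -5.01 to 0.26, Trp63 by 2.52, from -2.43 to 0.09, and Krt14 by 2.28, from -1.84 to 0.44. Of markers of other cells, Mcam differed by 1.37, Fn1 by 1.01, Flt1 by 1.27 and Tnni2 by 0.99. In Lpl and Fabp4 the sign was the other way round, with differences of -1.81 and -1.72, since both were higher with baicalin under the basal label and lower under the luminal label.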

How the results depend on the processing

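No paired analysis was possible because the labels give no replicate numbers and each group has 1 library. For the contractile genes, 220 single values were recomputed under the alternatives: 0 had the other sign and 55 moved. No median of the members took the other sign. The median over all genes, close to 0, took the other sign for baicalin under the basal label in TPM, at -0.00757, and between the labels with DMSO in TPM, at -0.0552, and with genes of at least 1 FPKM, at -0.00121. Where a value moved, the cause was not tested. In TPM the 1 added equals 0.275 to 0.296 FPKM, so the scale and the size of what was added changed together and cannot be told apart.

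For baicalin against DMSO under the basal label, the number of members lower was 4 with 0.1 FPKM added, 4 with none added (Acta2, Cnn1, Myl9 and Tpm2 in both), 3 in TPM (Acta2, Myl9 and Tpm2), 2 after centring (Myl9 and Tpm2) and 0 at a threshold of 2. The member median was -0.862 with 0.1 added, -0.906 with none and -0.569 in TPM. With genes of at least 1 FPKM it was -0.949, but only 5 members were kept, without Mylk, Myh11 and Cnn1. Of all genes, 1123 were higher and 1302 lower with 0.1 added, 1693 and 2054 with none, 696 and 1002 in TPM, and 41 and 132 at a threshold of 2.

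Under the luminal label, the number of members lower with baicalin was 1 at a threshold of 2. The member median was -0.657 under each of the 3 other filters, which let Actg2 in. Of all genes, 1052 were higher and 913 lower with 0.1 added, 1559 and 1537 with none, 718 and 578 in TPM, and 60 and 46 at a threshold of 2.

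Between the labels with DMSO, the member median was 5.59 with 0.1 added, 5.68 with none and 4.71 in TPM. Of all genes, 2027 were higher and 1467 lower with 0.1 added, 2872 and 1926 with none, 1306 and 1279 in TPM, and 185 and 150 at a threshold of 2. With baicalin, the member median was 4.96 with 0.1 added and 6.01 with none. It was 2.15 with genes of at least 1 FPKM and 2.15 with at least 10 fragments, both over 9 members with Actg2. At a threshold of 2 the number of members higher was 6, without Mylk and Oxtr. Of all genes, 2030 were higher and 1327 lower with 0.1 added, 2632 and 2003 with none, 1439 and 1083 in TPM, and 242 and 59 at a threshold of 2. The CArG box with 1 middle letter off, chosen after the data were seen, was in 2 promoters of members, where the full box was in 1.

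Limits: without replicates no difference was tested, the counting intervals leave out the variation between cultures, and the cell type labels went against the markers. Protein levels and contraction were not measured in these data.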
